A study of Caenorhabditis elegans with 2 samples.

Results

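The Myc, Mondo and Mad family genes of Caenorhabditis elegans described here are mml-1, mxl-2, mdl-1, mxl-1, mxl-3 and hlh-30, chosen by name as genes for basic helix-loop-helix (bHLH) factors that bind E-boxes. They are 6 of the 19973 nuclear protein-coding genes of the annotation. For each gene, the strongest peak was taken whose summit lay from 1000 bp upstream to 500 bp downstream of an annotated transcript start, together with all peaks whose summit lay inside the gene. The peaks come from chromatin immunoprecipitation followed by sequencing (ChIP-seq) of NHR-90, a nuclear hormone receptor. The animals were whole young adult hermaphrodites of strain OP484, collected 64 h after synchronization by bleaching and starvation at the first larval stage. They carry a stable transgene for NHR-90 with GFP and FLAG at its C-terminal end, and the precipitation used an antibody against GFP, although an antibody field in the labels reads nhr-90. There is 1 group with 2 biological replicates, and a control experiment that the labels name was not analysed here. The material was whole animals, so a strong site in few cells and a weak site in many cannot be told apart.

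In this network MML-1, the single Myc and Mondo relative of the worm, acts with its Mlx-like partner MXL-2, while the Mad-like repressor MDL-1 acts with the Max-like MXL-1. MXL-3 is another Max-like protein, known to repress lysosomal lipase genes in fed worms, and HLH-30, the worm TFEB, activates autophagy and lysosomal genes on fasting. These factors share the E-box CACGTG as a preferred target, and several of them are known to modify life span and fat stores in the worm. The peaks show where tagged NHR-90 was recovered at their own genes, and do not measure where the bHLH factors bind or how much of them is made.

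The lists read here are on the ce11 build. The pooled list held 30000 peaks called from both replicates, background included, and the replicate lists held 30000 and 26622. A further list held the 1441 reproducible peaks, those the authors kept by their irreproducible discovery rate (IDR), which asks whether both replicates rank a peak alike. It is the top of the pooled list by signal and ends at a signal of 98.9. The signal is a value the authors gave to every peak on a scale they do not state. Its lowest values were 15.1, 10.1 and 9.44 in the pooled, replicate 1 and replicate 2 lists, and whether it can be compared between lists is not known, so ranks are given beside it. The tagged gene itself, nhr-90, had no peak above rank 12249 of the pooled list within 1000 bp, at a signal of 29.9. Numbers of reads are unknown here.

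No family gene had an IDR peak at a transcript start, against 3.62% of all protein-coding genes (723 of 19973, exact 95% interval 3.37% to 3.89%, counting error only). At that share, a count of 0 of 6 is near the background. Among the 720 strongest IDR peaks the count was also 0 (1.69% of all genes). Below the IDR limit the genes spread over nearly the whole range of the pooled list. The strongest peak at a start was at rank 1498 for hlh-30, rank 1747 for mxl-3, rank 4416 for mdl-1, rank 4860 for mml-1 and rank 27893 for mxl-2, and mxl-1 had none. A pooled peak at a start was thus present at 5 of the 6 genes, where 42.0% of all genes had one. In the replicate 1 list 5 genes had a peak at a start (42.3% of all genes). In the replicate 2 list all 6 did (41.8%), and 5 had one in both (31.0%). These counts include calls near the lowest signal of their lists, the replicate 2 peak of mxl-1 (9.6) and the pooled peak of mxl-2 (16.3). The replicates' peaks need not lie at one place, and those of mxl-2 did not. Inside the gene, 5 of the 6 genes had a pooled summit (42.5% of all genes), 5 a replicate 1 summit (44.4%) and all 6 a replicate 2 summit (42.1%). Longer genes hold more summits, and the 6 genes range from 1088 to 20159 bp.

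**Figure D1:**
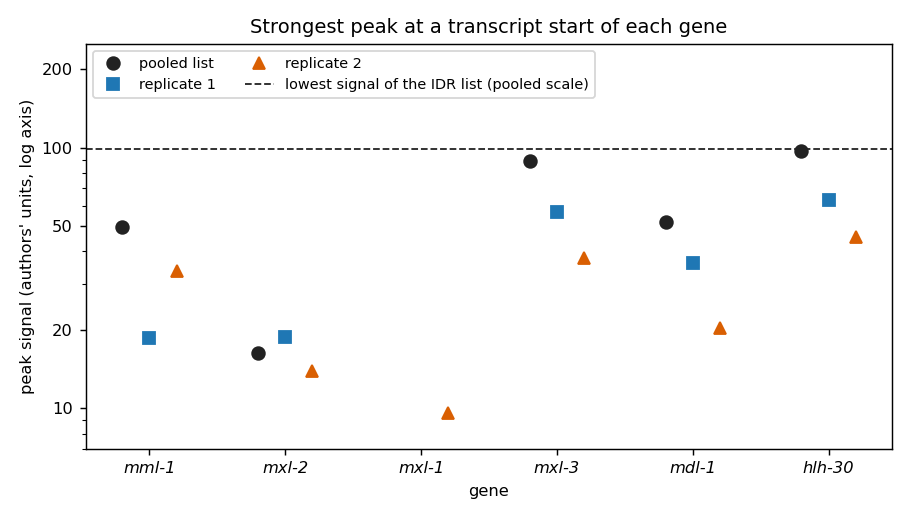
Signal of the strongest peak at a transcript start of each gene in the pooled list (circles), replicate 1 (squares) and replicate 2 (triangles), on a log axis in the authors' units. The pooled values of hlh-30 (96.9) and mxl-3 (88.7) lie just under the dashed line at 98.9, where the IDR list ends on the pooled scale, and mxl-1 has a replicate 2 point only.

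The genes also differed in where their strongest peaks lay. Peaks of the IDR list were close to 4 of the 6 genes once the whole gene and 2500 bp on either side were searched. This rule was added after the peaks had been seen, and 10.4% of all genes had such a peak under it. Each of the 4 genes had exactly 1, and each lay in a different setting: upstream of mml-1, just past the ends of mdl-1 and mxl-3, and in an intron of hlh-30. No IDR peak lay within that distance of mxl-2 or mxl-1. None of the 4 summits was within 100 bp of a tRNA, snoRNA or snRNA gene. The peaks of mdl-1 and hlh-30 were among the 1441 strongest of each replicate. That of mml-1 was not in replicate 2 (rank 2657), and that of mxl-3 was not in replicate 1 (rank 2686).

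The gene mml-1 (WBGene00003378, chromosome III, 7370130 to 7374731, minus strand) encodes the Myc and Mondo relative and has 2 annotated transcripts that start 6 bp apart. Its IDR peak, at III 7376417 to 7376866, had a summit 1911 bp upstream of the start, between genes. The closest start of a protein-coding gene was that of mml-1, and the next was that of T20B12.7, 2403 bp away. With the window widened to 2000 bp upstream and 1000 bp downstream, mml-1 was the only family gene with an IDR peak, as 5.46% of all genes had. The peak had a pooled signal of 111 (rank 1158), a signal of 80.8 in replicate 1 (rank 776) and of 33.3 in replicate 2 (rank 2657). It stood higher in replicate 1 than in replicate 2 by rank, and the replicate 1 summit lay 88 bp from the pooled one, while the replicate 2 summit coincided with it. The 201 bp around the pooled summit are shown because they hold the E-box CACGTG at 2 places, marked in capitals (ce11, chrIII:7376542-7376742, minus strand, as mml-1 is read).
mml-1 upstream peak: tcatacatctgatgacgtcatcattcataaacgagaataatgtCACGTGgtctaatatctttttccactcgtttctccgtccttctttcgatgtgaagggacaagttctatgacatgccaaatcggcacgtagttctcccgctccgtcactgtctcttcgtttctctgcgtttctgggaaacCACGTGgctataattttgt

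The first base of these E-boxes lay 57 bp upstream and 82 bp downstream of the pooled summit, in the direction of mml-1. The downstream one began 6 bp upstream of the summit of replicate 1. Windows of this width, 100 bp to each side, held CACGTG at 9.63% of the 1422 nuclear IDR summits and 5.83% of the 29981 nuclear pooled summits. In the narrower window of 50 bp to each side there was no match at the pooled summit of mml-1.

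Closer to the start the signal of mml-1 was lower. The strongest peak in the start window had its summit 891 bp upstream, with a pooled signal of 49.5 (rank 4860), 18.6 in replicate 1 (rank 13373) and 33.7 in replicate 2 (rank 2597). Here replicate 2 was the higher one, by value and by rank. The 2 upstream peaks of mml-1 were nearly level in replicate 2 (ranks 2597 and 2657). In replicate 1 the one further upstream ranked far higher (776 against 13373). The ratio of replicate 2 to replicate 1 at the strongest start peak was 1.81 for mml-1. Over the 6193 genes with a start peak in both lists its median was 0.792, and 96.6% of these genes had a lower ratio than mml-1. Inside the gene, 6 pooled summits were found, the strongest in an exon near the 3′ end with a signal of 49.9 (rank 4777).

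The partner gene mxl-2 (WBGene00003510, chromosome III, 186949 to 188131, minus strand) had the weakest start peak of the genes with one in the pooled list. Its pooled signal was 16.3, against a lowest value of 15.1 in that list, with the summit in an exon 188 bp downstream of the start. The start of ubc-20, a gene for a ubiquitin-conjugating enzyme, also lay within the window of this summit. In replicate 2 the strongest peak, of signal 13.9 (rank 14998), was 13 bp from the pooled summit. In replicate 1 it was elsewhere, 320 bp upstream of the start, with a signal of 18.8 (rank 13126). The replicates thus shared no peak at one place at this start. Outside the window, the strongest pooled peak near mxl-2 lay 2096 bp downstream of the start and past the gene's end, with signals of 68.2 pooled, 34.4 in replicate 1 and 28.9 in replicate 2. Another, 1358 bp upstream, reached 52.1, with its summit in an intron of ubc-20.

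**Figure D2:**
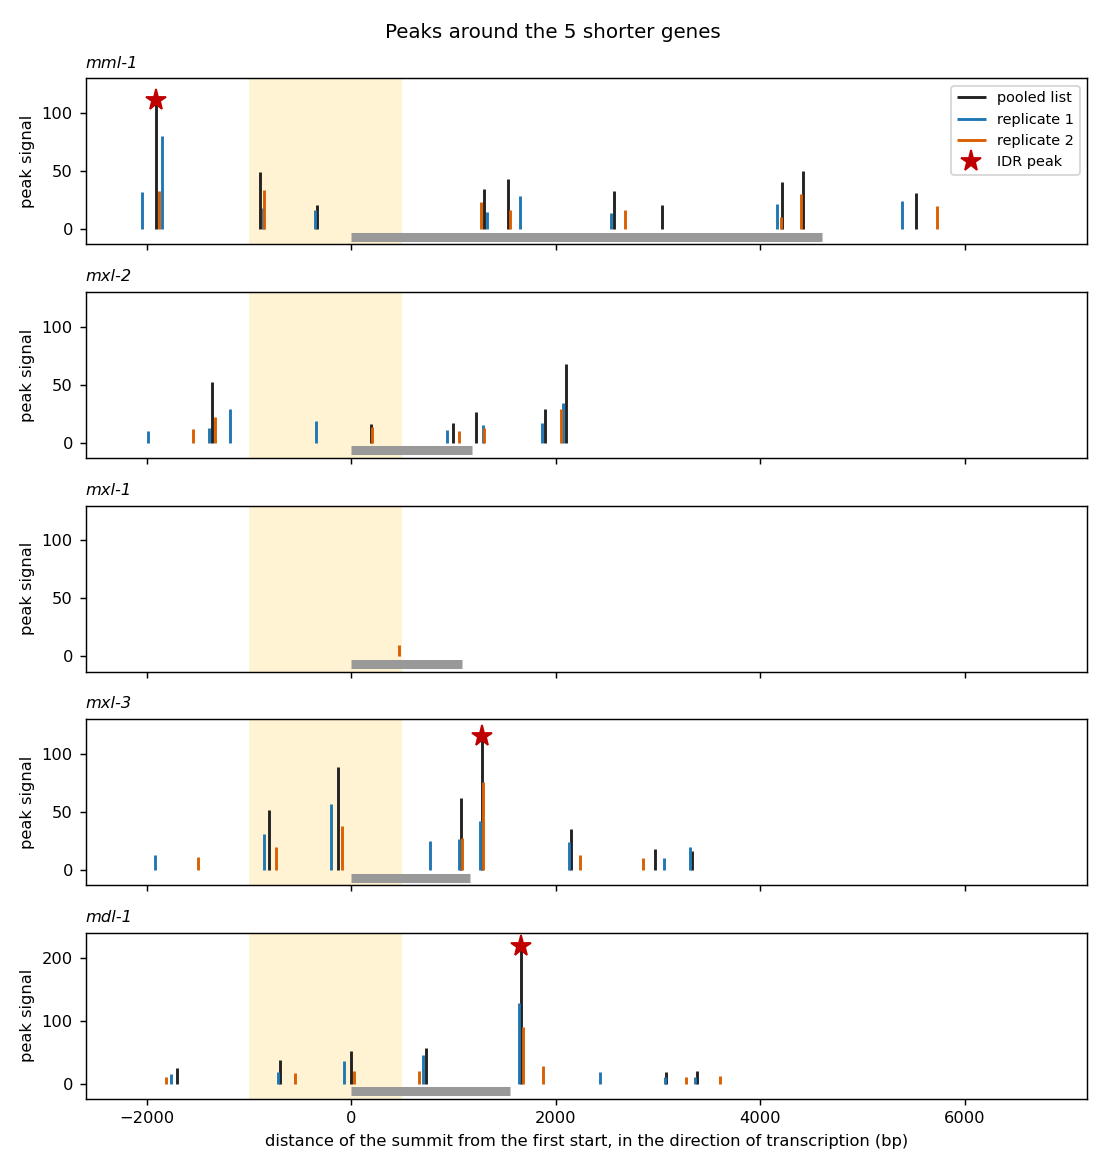
Peaks around the 5 shorter genes: each line is a peak, placed at the distance of its summit from the first start in bp and as high as its signal, for the pooled list (black), replicate 1 (blue, drawn slightly to the left) and replicate 2 (orange, slightly to the right). Grey bars are the genes, the shaded band is the start window, and stars are IDR peaks, which lie outside the band in mml-1, mxl-3 and mdl-1.

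The Mad-like gene mdl-1 (WBGene00003163, chromosome X, 6742351 to 6743899, plus strand) had the strongest peak found near any of the 6 genes. It lay past the end of the gene, at X 6743841 to 6744206, with its summit 116 bp beyond the annotated end. The pooled signal was 219 (rank 254), with 128 in replicate 1 (rank 259) and 89.6 in replicate 2 (rank 302). Both replicates placed it within their 302 strongest peaks, with summits 0 and 11 bp from the pooled one. The summit lay within 100 bp of the annotated non-coding RNA gene R03E9.10. Its nearest protein-coding start was that of mdl-1, 1664 bp upstream, and the next was that of R03E9.2, 10714 bp away. The 121 bp at the summit are shown for the E-box in capitals (ce11, chrX:6743955-6744075, plus strand).
mdl-1 downstream peak: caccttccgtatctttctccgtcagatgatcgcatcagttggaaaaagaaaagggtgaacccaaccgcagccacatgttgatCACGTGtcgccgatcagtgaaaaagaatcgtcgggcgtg

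This E-box began 22 bp downstream of the pooled and replicate 1 summits and 33 bp downstream of the replicate 2 summit. Within 50 bp of the summit, 5.49% of nuclear IDR peaks and 3.08% of nuclear pooled peaks held CACGTG. The wider pattern CANNTG, of which CACGTG is a special case, matched at 4 places in this window, and 41.3% of nuclear IDR summits held at least 1 such match.

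At the start of mdl-1 the strongest pooled peak had its summit 6 bp before the start, with signals of 52 pooled (rank 4416), 36.2 in replicate 1 (rank 3606) and 20.4 in replicate 2 (rank 7285). The summits of the replicates lay 45 bp and 2 bp before the start, so the position was shared while replicate 1 ranked it higher. An intronic peak 730 bp downstream of the start was of similar signal, 56.5 pooled, 46.1 in replicate 1 and 20.8 in replicate 2. The peak past the gene end therefore exceeded every peak in or before the gene, in all 3 lists.

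The gene for the partner of MDL-1, mxl-1 (WBGene00003509, chromosome V, 11244839 to 11245926, plus strand), had no pooled peak and no replicate 1 peak, either at the start or inside the gene. Its one peak, in an intron 439 bp downstream of the start in replicate 2, had a signal of 9.6 and rank 26093 of 26622. That value is next to the lowest signal of the list (9.44) and had no counterpart in replicate 1. Peaks called from background are part of these lists, so this one is not taken as a binding site. Within 2500 bp, a distance set after the peaks were seen, the partners lay at opposite ends of the range. The 219 past the end of mdl-1 was at one end, and mxl-1, with no pooled peak, at the other. In the start window mdl-1 had 52 (rank 4416), below hlh-30 (96.9) and mxl-3 (88.7).

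The Max-like gene mxl-3 (WBGene00003511, chromosome X, 13349639 to 13350804, minus strand) had a start peak just under the IDR limit. Its summit lay 128 bp upstream of the start, at a pooled signal of 88.7 (rank 1747), with 56.9 in replicate 1 (rank 1563) and 37.9 in replicate 2 (rank 2041). The replicate summits were 41 bp and 9 bp from the pooled one. Only 4.55% of protein-coding genes had a start signal at least as high in the pooled list. The authors' IDR list on the ce10 build is longer, and the peak is within as many of the strongest ce11 pooled peaks as that list holds. By that limit mxl-3 and hlh-30 had a peak at a start, as did 5.76% of all genes.

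A second mxl-3 peak passed the IDR threshold. It was narrow, 195 bp wide against a median of 450 bp, and lay 114 bp past the end of the gene at X 13349430 to 13349624. Its signal was 116 (rank 1062), with 42.3 in replicate 1 (rank 2686) and 76.1 in replicate 2 (rank 472). Replicate 2 ranked this peak higher, whereas replicate 1 ranked the start peak higher. Both mxl-3 and mdl-1 thus had an IDR summit shortly past their ends, which 1.06% of all genes have within 1 to 200 bp of the end, a range also set after the peaks were seen. The sequences at both mxl-3 summits are shown for contrast with those of mml-1 and mdl-1, since neither holds CACGTG (ce11, minus strand). The first is chrX:13350872-13350992, with the GATA-type word TGATAA in capitals, and the second is chrX:13349465-13349585, with none of the words searched.
mxl-3 start peak: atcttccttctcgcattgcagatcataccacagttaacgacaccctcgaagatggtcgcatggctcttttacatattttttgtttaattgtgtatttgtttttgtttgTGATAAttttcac
mxl-3 downstream peak: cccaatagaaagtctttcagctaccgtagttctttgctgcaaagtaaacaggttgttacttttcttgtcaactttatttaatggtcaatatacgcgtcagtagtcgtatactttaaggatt

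The TGATAA began 48 bp downstream of the start-peak summit. It is a common word, found within 100 bp of 19.9% of the pooled summits at starts.

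The TFEB gene hlh-30 (WBGene00020930, chromosome IV, 4014793 to 4034951, minus strand) is by far the longest of the 6 genes, 20159 bp with 13 transcripts and 10 distinct starts. Peaks ran along much of its length: 19 pooled summits lay inside it, 13 of them in introns. There were 17 in replicate 1 and 21 in replicate 2. The most upstream of the pooled ones lay 3514 bp from the first start. The 19 pooled summits had signals from 15.9, near the list's lowest value of 15.1, to 106. They make 0.943 pooled summits per kb, with background calls not removed here or in the genes compared. Over the 196 protein-coding genes at least as long, the median was 0.239 per kb (interquartile range 0.0876 to 0.423), and 96.9% of them had fewer per kb than hlh-30. The comparison was by length only and not by number of starts. Some neighbouring peaks of hlh-30 overlapped, so its summits are not all separate sites. The starts of hlh-30 fall into 4 groups, which are described from the 5′ to the 3′ side.

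At the first group, 2 starts of 3 transcripts between 4034784 and 4034951, the strongest peak had signals of 48.4 pooled, 25.8 in replicate 1 and 22.1 in replicate 2. At the second, the single start 4028127 of 2 transcripts, the signals were 88.5 pooled, 62.8 in replicate 1 and 33.8 in replicate 2. At the third, the start 4027063 of 2 transcripts, they were 58.7, 32.2 and 33.4 in the same order. At the last group, 6 starts of 6 transcripts between 4018331 and 4019044, they were 96.9, 49 and 45.6. By the strongest peak in the window, the internal groups were thus higher in every list, and the most upstream group the lowest. For the third group this rests on the shared peak. For the last it rests on a pooled peak 986 bp upstream, near the window's edge. The next pooled peaks of these groups had signals of 15.9 and 41.1, below the 48.4 of the first group. The replicates differed in which internal start led: the second group in replicate 1, the last group in replicate 2 and the pooled list.

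The pooled leader, with a summit 986 bp upstream of start 4019044, lay in an intron within 100 bp of the annotated non-coding RNA gene W02C12.4. Its summits in both replicates were within 2 bp of the pooled one. At rank 1498 it fell 57 ranks short of the end of the IDR list. Among all genes, 3.75% had a start signal at least as high, but hlh-30 has more starts than most genes. Of the 514 genes with at least 5 distinct starts, 16.9% had a start peak under the longer limit taken from the ce10 list, against the 5.76% over all genes. In the replicates taken alone, hlh-30 was within the 1441 strongest peaks of each, as 3.74% of all genes were in replicate 1, 3.49% in replicate 2 and 2.44% in both, and no other gene of the family was. The peaks that met this limit were different ones: the peak before the second start group in replicate 1 (rank 1291, and rank 2575 in replicate 2) and the peak before the last group in replicate 2 (rank 1417, and rank 2036 in replicate 1). No single start peak of hlh-30 was among the 1441 strongest of both replicates.

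The strongest peak of hlh-30 was not at a start. It was the IDR peak in an intron at IV 4024136 to 4024585, with a signal of 106 (rank 1269), 60.4 in replicate 1 (rank 1396) and 53.2 in replicate 2 (rank 1026). Its summit lay 2702 bp downstream of the start at 4027063 and 5317 bp upstream of the start at 4019044. The ranks were close in both replicates, and the summits lay 6 bp and 89 bp from the pooled one. Over all genes 2.65% had an IDR summit inside the gene, and hlh-30 was the only family gene with one. It also had a summit inside among the 1441 strongest peaks of replicate 1 (2.68% of all genes) and of replicate 2 (2.77%), and under the longer limit (3.95%), but not among the 720 strongest IDR peaks (1.32%). In the whole IDR list, 39 of the 196 genes at least as long as hlh-30 had a summit inside, or 19.9% (exact 95% interval 14.5% to 26.2%).

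**Figure D3:**
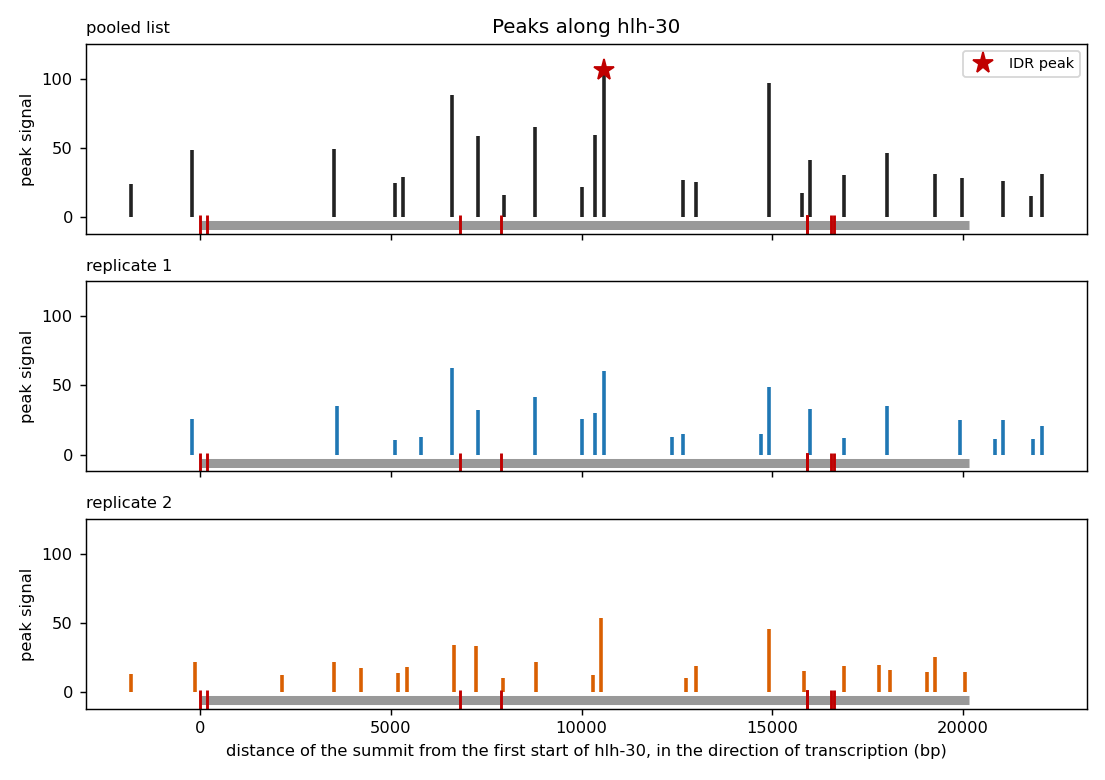
Peaks along hlh-30 in the pooled list, replicate 1 and replicate 2. Lines stand at the distance of each summit from the first start in bp, in the direction of transcription, and are as high as the peak's signal. The grey bar is the gene and red ticks are its annotated starts. The star marks the IDR peak at a signal of 106, between the internal starts.

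The sequences at the 3 strongest pooled summits of hlh-30 are shown because the same repeat lies in each (ce11, minus strand, as the gene is read). They are the intronic IDR peak at chrIV:4024301-4024421, the peak before the last start group at chrIV:4019970-4020090 and the peak before the second at chrIV:4028290-4028410. Capitals mark matches to the GA repeat GAGAGAG, read here as CTCTCTC from the opposite strand.
hlh-30 intronic peak: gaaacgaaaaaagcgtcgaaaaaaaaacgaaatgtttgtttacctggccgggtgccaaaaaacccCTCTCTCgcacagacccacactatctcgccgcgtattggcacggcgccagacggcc
hlh-30 last start group: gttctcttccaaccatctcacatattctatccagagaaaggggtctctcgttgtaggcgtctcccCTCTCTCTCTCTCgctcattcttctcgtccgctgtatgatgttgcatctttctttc
hlh-30 second start group: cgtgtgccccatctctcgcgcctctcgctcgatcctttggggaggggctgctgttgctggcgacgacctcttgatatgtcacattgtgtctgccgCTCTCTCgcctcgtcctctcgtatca

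The repeat began 5 bp downstream of the summit in the intronic peak, 5 bp downstream in the peak of the last start group, where 4 overlapping matches follow each other, and 35 bp downstream in the peak of the second group. The weaker peak before the first start group held no match within 150 bp of its summit. Within 50 bp, GAGAGAG was found at 7.45% of the nuclear IDR summits, 3.44% of the nuclear pooled summits, 9.72% of the 648 IDR summits at starts and 3.9% of the 12429 pooled summits at starts. None of the 3 windows held CACGTG, and none of the strongest pooled start summits of the 5 genes with one did within 50 bp, where 4.63% of IDR start summits and 3.14% of pooled start summits had it. In the annotated promoters, from 250 bp before to 50 bp after the first start, CACGTG occurred in mdl-1 alone of the 6 genes, and in 5.82% of all protein-coding genes. Matches of letters describe these windows and do not show which protein is bound there. All words were sought on both strands.

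**Figure D4:**
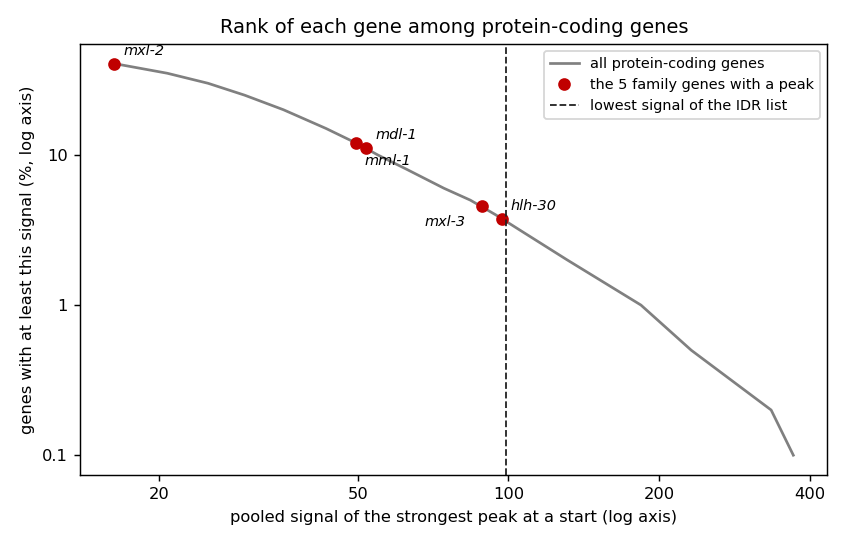
Share of protein-coding genes (percent, log axis) whose strongest start peak in the pooled list has at least the signal on the horizontal axis (log axis). The red points hlh-30 (3.75%) and mxl-3 (4.55%) lie next to the dashed IDR limit, mdl-1 (11.1%) and mml-1 (12%) lie further down, and mxl-2 (40.6%) is at the weak end of the list.

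By the same measure the family was compared with other genes of its kind and with the processes its members are known for. Of 35 other bHLH and bHLH-PAS genes, 1 had an IDR peak at a start, 2.86%, near the 3.62% of all genes. It was hlh-11, whose product is known as a repressor of fat breakdown genes, with a pooled signal of 192 (rank 371), 114 in replicate 1 and 73.8 in replicate 2, at 263 bp upstream of its start. A pooled peak at a start was present at 10 of these 35 genes, 28.6%, against 42.0% of all genes. The median pooled signal, counting genes without a peak as 0, was 0, as over all genes. In the 6 family genes that median was 50.8.

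Autophagy and lysosomal lipase genes were listed for processes that HLH-30 is known to regulate. Whether HLH-30 acts on each of them was not tested. IDR peaks lay at the starts of 5 of the 33 genes, 15.2% against 3.62% of all genes. A pooled peak lay at 23, 69.7% against 42.0%. The count of 5 was 4 without summits near small RNA genes (2.88% of all genes). It fell to 3 among the strongest replicate 2 peaks, without replicate 1 (3.49% of all genes). Among the 720 strongest IDR peaks it fell to 1, lgg-2 (1.69% of all genes). Their median pooled signal was 30.9, where that of all genes was 0. The 5 were lgg-1 and lgg-2, the worm homologues of Atg8, atg-7, the E1-like enzyme of Atg8 conjugation, bec-1, the worm Beclin, and epg-4, an autophagy factor of the endoplasmic reticulum. The pooled signal was 159 for lgg-2 (90.6 in replicate 1, 65 in replicate 2). It was 118 for lgg-1, with 84.6 in replicate 1 and 38.8 in replicate 2. The other three were lower and closer to the IDR limit: epg-4 had 117, bec-1 had 107 and atg-7 had 103. The bec-1 summit lay within 100 bp of the small RNA gene T19E7.29. None of the 8 lipase genes lipl-1 to lipl-8 had an IDR peak in the start window, where the highest pooled signal, 51.8, was that of lipl-5. With the window of 2000 bp upstream to 1000 bp downstream, lipl-2 and lipl-4 had one, as did 5.46% of all genes.

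The genes whose start signals in the 3 lists were closest to those of hlh-30 and mxl-3 were sought among the 5915 genes with a start peak in all 3 lists (29.6% of all genes), a step extended to these 2 genes after their values were seen. Likeness was the sum of absolute differences in log2 signal. For hlh-30 it was least for prmt-5, an arginine methyltransferase gene (94.9 pooled, 62.7 in replicate 1, 45.3 in replicate 2, sum 0.04), then for kbp-4 (sum 0.14). For mxl-3 it was least for K04G7.1 and syf-2, which have the same peak in their windows (90.7, 56.5 and 37.4, sum 0.06). This likeness rests on 3 values a gene. For hlh-30 these come from different peaks, the replicate 1 value from the second start group and the others from the last.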

How the data were processed

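ChIP-seq peak lists of NHR-90 from 2 biological replicates of 1 group were read. Peaks and their IDR selection are the authors' work, per the deposited text records. The peak signal and the −log10 q-value are the deposited narrowPeak columns. The highest −log10 q-value, 2.79, was shared by 2783 pooled peaks, so the deposited signal was used to rank. The caller, the aligner, their versions and the cut-off for IDR were not given in the sources used here. Lists on ce11 were used throughout, and the ce10 IDR list for its length only, which sets a longer limit on the ce11 pooled list at a signal of 76.2, also the lowest signal of the ce10 list.

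Gene models were those of Ensembl release 115 on WBcel235, the assembly that ce11 follows, and sequences came from the RefSeq genome of that assembly. Coordinates are 1-based. A peak could be assigned to several genes. Every gene was scored by the same rule, and percentages are over all protein-coding genes, with exact (Clopper-Pearson) 95% intervals for counting error. No significance test was run, since there is 1 group of samples and genes are not replicates. The assignment and the motif search were tested on simulated data with 200 peaks. Python 3.11.15, numpy 2.4.6, pandas 2.3.3 and scipy 1.17.1 were used.

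The members, gene lists and words were chosen with earlier results of these data known. Named genes are all 6 members, genes of the 2 lists with an IDR peak at a start, nhr-90, genes sharing a member's peak, and the 2 genes most like a member; T20B12.7, R03E9.2, the lipl genes and the non-coding genes were named after their values were seen. Alternatives were other peak limits, each replicate alone, other windows, other starts, overlap rules and motif windows.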

Additional observations from a re-analysis of the deposited data

How the results depend on the processing

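The count of family genes with an IDR peak at a start (0) became 2 with the pooled list cut at the ce10 IDR length (mxl-3, hlh-30). It was 1 with a window of 2000 bp upstream to 1000 bp downstream (mml-1). Within 2500 bp of the gene, a rule added after seeing the data, it was 4, where 10.4% of all genes had such a peak. With either replicate alone it was 1 (range 1 to 1, hlh-30), where the share of all genes was 3.74% in replicate 1 and 3.49% in replicate 2. The background share (3.62%) became 1.69% with the 720 strongest IDR peaks, 5.76% at the ce10 length, 2.09% with 500 bp upstream only and 5.46% with the wide window. The 5 autophagy and lipase genes became 1 with 720 peaks (lgg-2), 9 with the wide window and 3 to 5 with either replicate alone, lgg-1 and atg-7 being lost without replicate 1. The 1 gene with an IDR summit inside became 0 with 720 peaks (1.32% of all genes) and 2 by any overlap, which adds mdl-1. The share of all genes was not computed for any overlap. The 5 genes with a start peak in both replicates became 1 among the strongest peaks of each (hlh-30, 2.44% of all genes) and 3 with 500 bp. The count was 4 where both peaks had to overlap the strongest pooled peak, which drops mxl-2. No share of all genes was computed for this overlap rule or for both replicates with 500 bp. The pooled start signal of mml-1 (49.5) was 21.3 with 500 bp and 111 with the wide window. That of mxl-2 (16.3) was 52.1 with the wide window, from a peak in an intron of ubc-20. That of hlh-30 (96.9) was 48.4 at its first start. mxl-2 had no pooled peak with 500 bp, and mxl-1 none in the main window, so these gave no value. The count of start summits with CACGTG (0) was 1 in a 300 bp window (mdl-1), where 7.97% of all pooled start summits held it. In all, 41 of 62 alternatives left their value within the limits set. The limits were a fixed fold change for counts and shares, or no change where the main count was 0. For signals the limit was the standard deviation between the replicates, whose scales may differ. These limits are unlike, so the tally is not a rate of robustness. No paired analysis was possible because there is 1 group of samples. Depth is unknown, and the pooled list ends at a signal of 15.1, so weaker sites at mxl-1 were not detectable in these lists.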
